A study of Mus musculus with 12 samples.

Results

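Satellite glial cells form a sheath around the cell bodies of sensory neurons in the dorsal root ganglia, and the 9 genes described here are markers of these cells: Fabp7, Glul, Kcnj10, Gja1, Apoe, Slc1a3, Gfap, Ednrb and Cdh19. The genes were chosen by symbol, 9 of the 23238 distinct symbols in the count files, and all 9 were among the 15036 genes with enough counts to be tested. Messenger RNA came from ganglia of lumbar levels 3 to 5 of C57BL/6 mice at postnatal week 8. The 4 groups were females after sciatic nerve injury (Female SNI), females after a sham operation (Female sham), males after the injury (Male SNI) and males after a sham operation (Male sham), with 3 libraries each. The labels name no transgene, deletion or drug in any group, and they give no time since the operation. The libraries read the 3′ ends of polyadenylated transcripts, and each held 12476606 to 15520746 counts, so that 3 counts in 1 library correspond to 0.193 to 0.241 CPM, the unit of counts scaled to the library total. These limits cover counting error only. Counts of Rn45s, a ribosomal RNA gene, stayed in the totals and made up from 6.14% (Male sham replicate 3) to 11.2% (Female SNI replicate 1) of them. Nothing in the labels ties the 3 libraries of a group to separate mice, and p-values therefore cover only library-to-library spread, possibly technical.

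Satellite glia take up glutamate and potassium released around the neuron, share ions and small molecules through gap junctions, and handle lipids for the neurons they enclose. After peripheral nerve injury they are known for increased coupling through gap junctions, for raised Gfap protein and, in rodents, for altered potassium buffering. In these genes, Glul encodes glutamine synthetase, which turns glutamate into glutamine, and Slc1a3 encodes the glutamate transporter GLAST. Kcnj10 encodes the inwardly rectifying potassium channel Kir4.1, and Gja1 encodes the gap junction protein connexin 43. Fabp7 encodes a brain-type fatty acid binding protein, and Apoe encodes the lipoprotein component apolipoprotein E. Gfap encodes the intermediate filament protein of astrocytes and other glia, Ednrb the endothelin B receptor, and Cdh19 a cadherin of the Schwann cell lineage. Several of these genes are also used by other cells of a ganglion, such as Apoe in macrophages and Gfap and Cdh19 in Schwann cells. In RNA from whole ganglia, fewer cells of a type and less RNA per cell cannot be told apart.

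The sequence just before the transcription start is shown for 3 members: Glul, which changed after injury, and Fabp7 and Gja1. Fabp7 and Gja1 were low together in the same 2 libraries, as were 14.6% of all genes tested, described further on. Whether these 2 genes share any regulation was not tested. RefSeq (GRCm38.p6) gave such a window of 250 bases for 8 of the 9 members, in 10 windows because Apoe has 3 annotated starts; Cdh19 had none in the table used. The windows lie on the plus strand at chr1:153899679-153899928 for Glul, chr10:57784673-57784922 for Fabp7 and chr10:56377050-56377299 for Gja1. They are written 5′ to 3′, and capitals mark matches, on either strand, to any of 7 motifs: SOX (ACAANG), AP-1 (TGANTCA), CRE (TGACGTCA), an NFI-type site (TTGGCA), the CCAAT box (CCAAT), the GC box (GGGCGG) and the TATA box (TATAAA).
Glul: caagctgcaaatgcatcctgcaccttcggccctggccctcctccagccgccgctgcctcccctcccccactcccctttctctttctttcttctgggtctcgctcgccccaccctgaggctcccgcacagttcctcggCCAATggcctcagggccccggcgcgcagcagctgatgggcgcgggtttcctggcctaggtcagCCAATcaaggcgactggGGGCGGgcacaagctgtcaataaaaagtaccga
Fabp7: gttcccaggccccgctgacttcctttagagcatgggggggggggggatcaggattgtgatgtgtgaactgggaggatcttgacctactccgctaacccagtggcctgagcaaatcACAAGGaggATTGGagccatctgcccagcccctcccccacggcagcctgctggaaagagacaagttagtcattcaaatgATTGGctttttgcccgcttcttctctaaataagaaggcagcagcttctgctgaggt
Gja1: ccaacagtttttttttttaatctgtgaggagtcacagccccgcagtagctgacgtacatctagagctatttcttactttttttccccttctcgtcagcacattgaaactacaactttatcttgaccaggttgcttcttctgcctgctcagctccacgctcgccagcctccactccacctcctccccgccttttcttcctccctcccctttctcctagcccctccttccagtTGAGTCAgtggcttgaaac
The Glul window held 2 CCAAT matches and 1 GC box match, the Fabp7 window 1 SOX and 2 CCAAT matches, and the Gja1 window 1 AP-1 match that begins 19 bases before the start. Of 32851 windows in the table, 33.8% held a CCAAT match, 36.3% a SOX match, 32.7% a GC box match and 6.75% an AP-1 match. Over all members with a window, 5 of 8 held a CCAAT match, 3 a SOX match, 3 a GC box match, 2 a TATA match (12.4% of all windows), 1 an NFI-type match (12.3%), 1 an AP-1 match and 0 a CRE match (1.55%). A member was counted if any of its windows held a match, whereas the percentages are per window. Counted per window, the same numbers held a match out of 10 windows of members. The Glul window had a GC content of 64.8%, against 54.8% for Fabp7 and a median of 52.4% over the table. A match describes the letters in the window and is not evidence of binding.

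The injury labels of the libraries were checked first, and no check of the sex labels is given here. Atf3, a transcription factor induced in axotomised sensory neurons, averaged 316 ± 30.6 CPM in the 6 SNI libraries and 50.9 ± 4.22 CPM in the 6 sham libraries (SD), and it rose by 2.63 ± 0.09 on the log2 scale. CPM per library are scaled by TMM factors as well as totals. The libraries Male SNI replicate 2 and Female sham replicate 2 stood apart on the first principal component of log2 CPM, with scores of 99.9 and 47.5, while the other 10 libraries scored between -32.8 and 0.963. Changes of the members averaged over the sexes are given with and without them. Every member had counts in all 12 libraries apart from Gfap, which had 0 counts in Male sham replicate 2. All 9 markers of the label were thus detected, but Gfap and Cdh19 were at low levels, no more than 6.76 and 4.77 CPM in any library.

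After injury, Glul was the member that rose, and it did so by 0.55 ± 0.07 on the log2 scale averaged over the sexes, a 1.46-fold increase (SE; edgeR quasi-likelihood test, Benjamini-Hochberg adjusted p = 0.000326). None of the other 8 members passed, with adjusted p between 0.173 and 0.973. Over all tested genes 6.52% passed in this comparison and 3.78% passed as higher after SNI, against 1 of 9 members. The median log2 change was 0.14 over the members and 0.00 over all genes tested. On the log2 scale 7 members were above 0 and 2 were below it, while 50.5% of all genes tested were above 0. Of the members above 0 only Glul passed, and Ednrb was below 0 (-0.03) without the 2 libraries that stood apart.

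**Figure D1:**
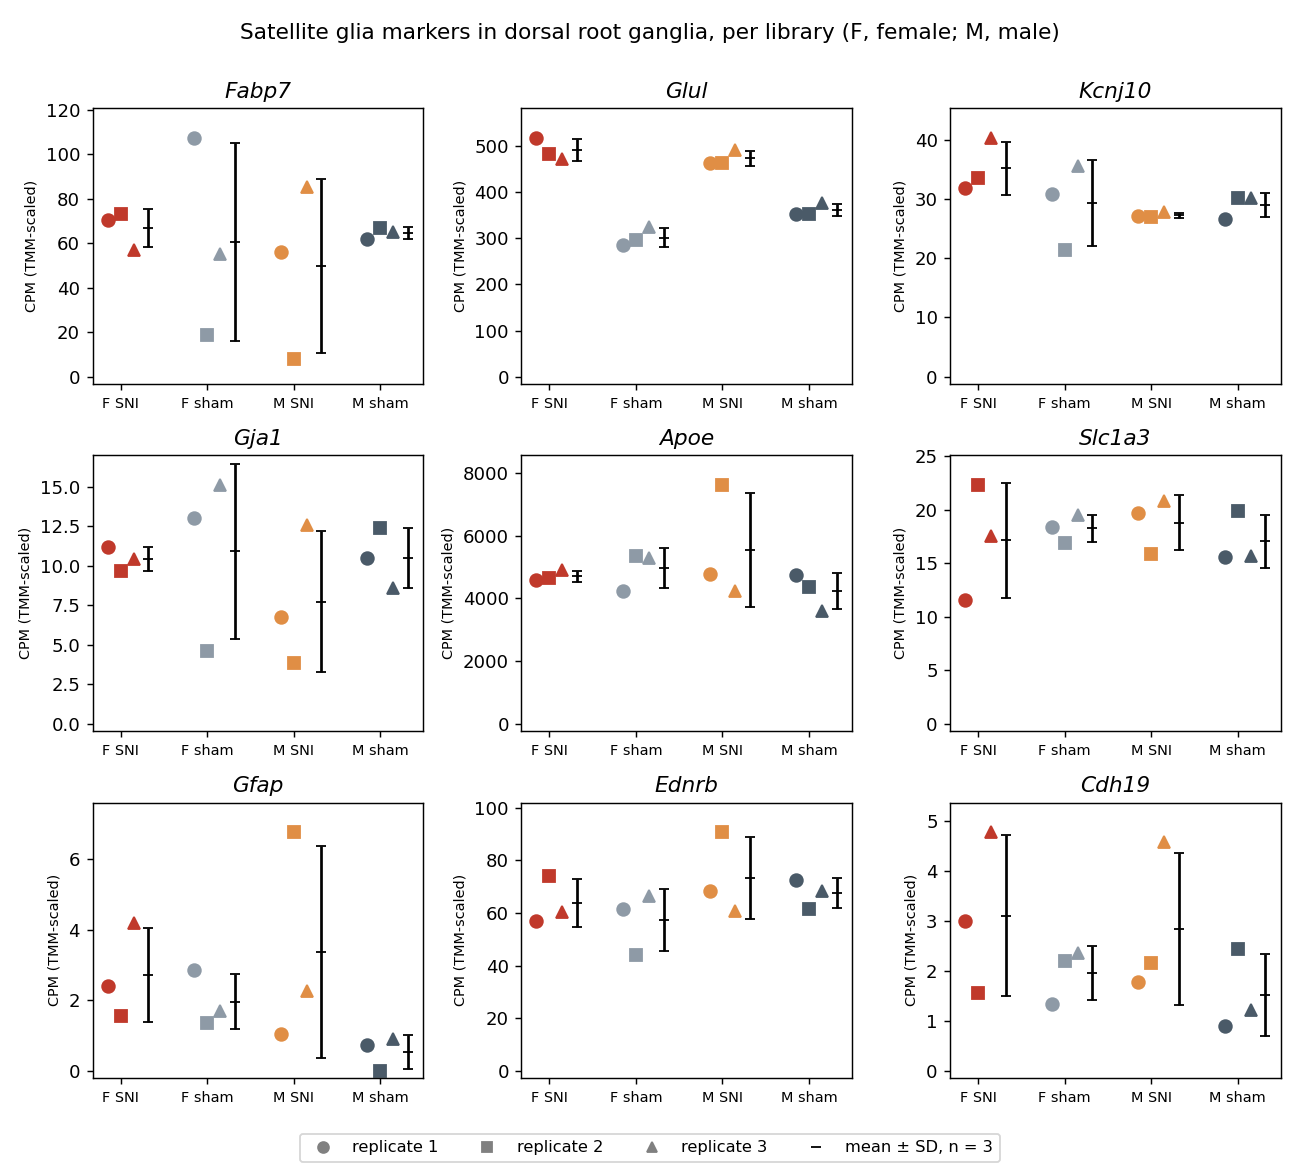
Level of each of the 9 satellite glia markers in every library, in CPM scaled by TMM factors (vertical axes start just under 0), for Female SNI, Female sham, Male SNI and Male sham; symbols mark the replicate, and bars give mean ± SD of 3 libraries. Glul lies at 463 CPM or more in all SNI libraries and at 376 CPM or less in all sham libraries. Replicate 2 of Male SNI and of Female sham holds the lowest values of Fabp7 and Gja1, as for 14.6% of all genes tested.

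Glul, on chromosome 1 at 153899929 to 153909723 (GRCm38, plus strand), was at 517, 483 and 473 CPM in the Female SNI libraries, against 285, 296 and 324 CPM in the Female sham libraries. The male SNI libraries were at 464, 463 and 492 CPM, against 353, 354 and 376 CPM in Male sham libraries. All 6 SNI libraries lay above all 6 sham libraries, which 2.79% of the tested genes did in the same direction. The mean was 491 ± 23.2 CPM in Female SNI and 302 ± 20.2 CPM in Female sham, and 473 ± 16.3 CPM in Male SNI and 361 ± 13.3 CPM in Male sham (SD, n = 3). From the highest to the lowest mean the order was Female SNI, Male SNI, Male sham and Female sham. Of the neighbours in that order, Female SNI and Male SNI overlapped. Male SNI lay above Male sham, as in 9.09% of the tested genes, and Male sham lay above Female sham, as in 7.27% of them. Within groups the libraries varied by 3.45% to 6.70% of the mean. Exons of Glul share 116 bases with those of Teddm2 on the opposite strand, and no source used here says whether strand was used in counting, so the value of Glul is uncertain to that extent. Teddm2 had only 0.401 CPM over all libraries. Glul exons also contain the microRNA gene Mir8114, which had no row of its own in the files.

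Within females Glul rose by 0.70 ± 0.10 (adjusted p = 0.00185), a 1.63-fold increase, in a comparison where 2.89% of all genes passed. Within males it was higher in all 3 SNI libraries, by 0.39 ± 0.10 or 1.31-fold, and did not pass (adjusted p = 0.0691), where 2.13% of all genes passed. The male value was 0.41 ± 0.09 with adjusted p = 0.0122 when Male SNI replicate 2 and Female sham replicate 2 were left out, and it passed without Male SNI replicate 2 alone (adjusted p = 0.0298). With the remaining libraries left out in turn, adjusted p in males was as high as 0.255. In an edgeR fit of the 6 male libraries alone, the male change was 0.39 ± 0.13 and did not pass (adjusted p = 0.353). The difference between the sexes in the change of Glul, males minus females, was -0.31 ± 0.14 with a 95% interval of -0.62 to -0.01. This difference did not pass (unadjusted p = 0.0458, adjusted p = 0.647), and 0 of the 15036 genes (0%) did so in edgeR, DESeq2 or limma, while 1100 (7.32%) had an unadjusted p under 0.05 in edgeR. Averaged over the sexes, Glul kept its call in each of the 12 fits that left out 1 library, with changes of 0.53 to 0.57, and it was 0.55 ± 0.07 without the 2 libraries that stood apart (adjusted p = 9.03e-06). The summed macrophage markers, given with Apoe further on, were also higher in all SNI libraries than in all sham libraries, and their part in the change of Glul was not tested.

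**Figure D2:**
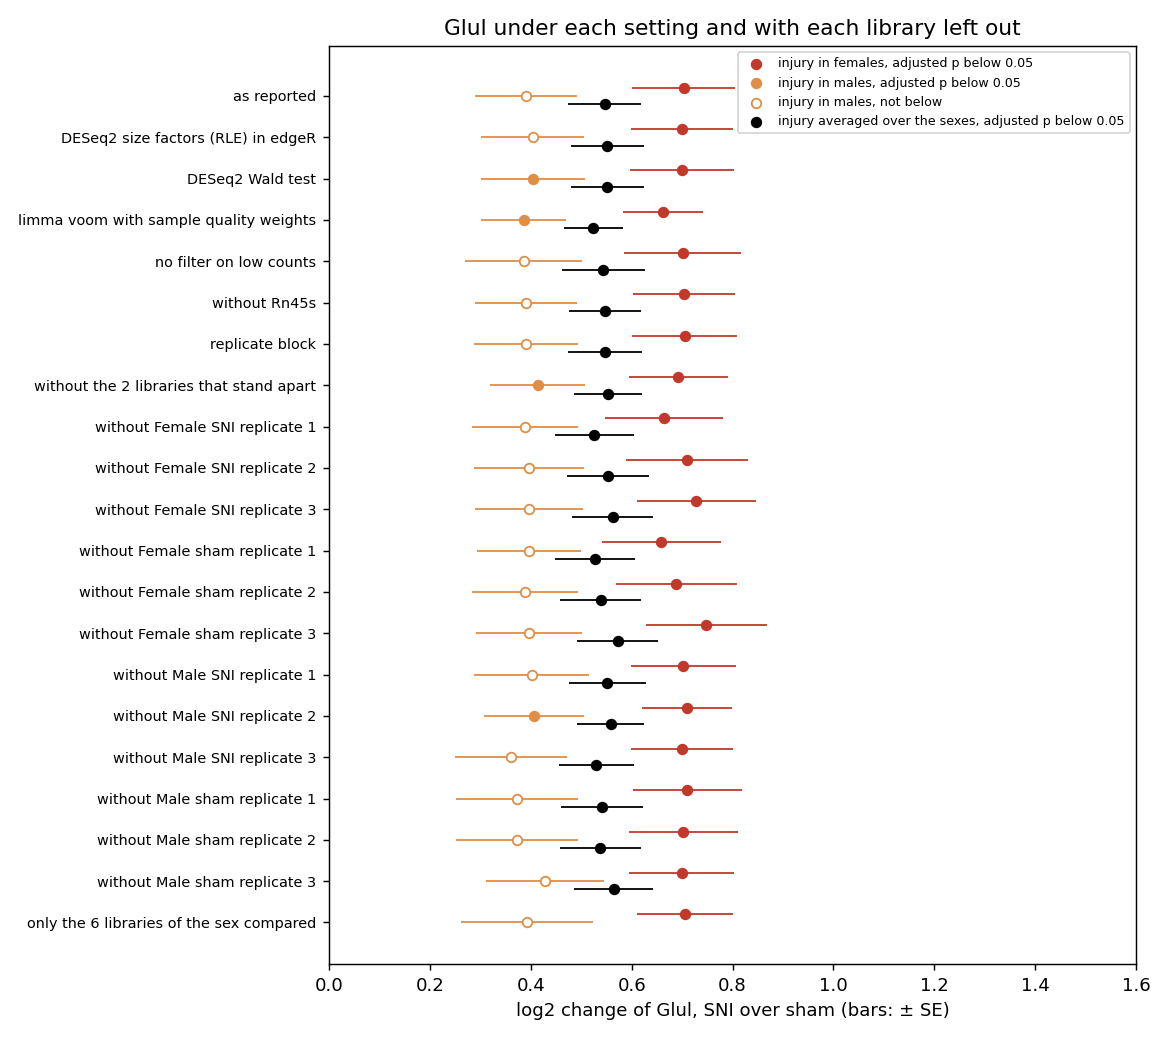
Log2 change of Glul, SNI over sham, with its SE (horizontal axis), in the fit as reported, under each alternative setting and with each library left out (vertical axis); filled points had an adjusted p under 0.05. The change in females and the average over the sexes were filled at every setting, and the change in males, 0.36 to 0.43 with 1 library left out, was filled only in DESeq2, in limma with quality weights, without the 2 libraries that stood apart and without Male SNI replicate 2.

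Slc1a3, the other member that acts on glutamate (chromosome 15, 8634124 to 8710807), showed no call. It was at 11.6, 22.3 and 17.5 CPM in Female SNI libraries, against 18.4, 16.9 and 19.5 CPM in Female sham libraries. Male SNI libraries had 19.7, 15.9 and 20.8 CPM, against 15.6, 19.9 and 15.7 CPM in Male sham libraries. In both sexes the groups overlapped, and the highest and the lowest value of all both came from Female SNI. The change was 0.02 ± 0.16 averaged over the sexes (95% interval -0.32 to 0.37, adjusted p = 0.973), and 0.058 ± 0.16 without the 2 libraries that stood apart (adjusted p = 0.886). Its sign turned in 5 of the 12 fits with 1 library left out.

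The members that act in potassium buffering and in coupling between cells did not pass in any comparison. Kcnj10 (chromosome 1, 172341210 to 172374085) was at 31.8, 33.5 and 40.2 CPM in Female SNI libraries, against 30.9, 21.4 and 35.6 CPM in Female sham libraries. In Male SNI libraries the level was 27.1, 26.9 and 27.7 CPM, against 26.7, 30.1 and 30.1 CPM in Male sham libraries. Groups overlapped in both sexes, with the lowest value in Female sham replicate 2. Its change was 0.09 ± 0.13 averaged over the sexes (95% interval -0.19 to 0.37, adjusted p = 0.806), and 0.0079 ± 0.11 without Female sham replicate 2 and Male SNI replicate 2 (adjusted p = 0.982). In females it was 0.26 ± 0.18 (adjusted p = 0.562), and 0.085 ± 0.16 without these libraries.

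Gja1 (chromosome 10, 56377300 to 56390419) was at 11.2, 9.65 and 10.4 CPM in Female SNI libraries, against 13.0, 4.61 and 15.1 CPM in Female sham libraries. Among males, SNI libraries were at 6.74, 3.84 and 12.6 CPM, against 10.5, 12.4 and 8.59 CPM in Male sham libraries. SNI and sham values overlapped in both sexes, and the lowest values of all were those of Male SNI replicate 2 and Female sham replicate 2. The change was -0.25 ± 0.30 (95% interval -0.89 to 0.39, adjusted p = 0.751). Without those 2 libraries it was -0.26 ± 0.19 (adjusted p = 0.438), with 6.74 to 12.6 CPM in 5 SNI libraries, against 8.59 to 15.1 CPM in 5 sham libraries.

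Of the members that handle lipids, Fabp7 varied most between libraries. Fabp7 (chromosome 10, 57784923 to 57788450) was at 70.4, 73.2 and 57.2 CPM in Female SNI libraries, against 107, 18.9 and 55.3 CPM in Female sham libraries. The level in Male SNI libraries was 56.1, 8.06 and 85.2 CPM, against 61.9, 67.1 and 65.0 CPM in Male sham libraries. The groups overlapped in both sexes, and the SD was 12.8% of the mean in Female SNI, against 73.4% in Female sham, and 78.2% in Male SNI, against 4.03% in Male sham. The change was -0.12 ± 0.43 averaged over the sexes (95% interval -1.04 to 0.81, adjusted p = 0.942). Without Male SNI replicate 2 and Female sham replicate 2 it was -0.07 ± 0.15 (adjusted p = 0.844), with 56.1 to 85.2 CPM in 5 SNI libraries, against 55.3 to 107 CPM in 5 sham libraries. The sign within a sex turned when these libraries were left out, to -0.27 in females, against 0.15 with all libraries, and to 0.14 in males, against -0.38 with all libraries, with no call in any of these fits.

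Apoe (chromosome 7, 19696244 to 19701310) was at 4577, 4637 and 4906 CPM in Female SNI libraries, against 4228, 5362 and 5278 CPM in Female sham libraries. Male libraries after SNI had 4768, 7602 and 4240.1 CPM, against 4741, 4362 and 3589 CPM in Male sham libraries. The groups overlapped in both sexes, and Male SNI replicate 2 was the highest of the 12. The change was 0.16 ± 0.13 averaged over the sexes (95% interval -0.13 to 0.45, adjusted p = 0.619), and 0.04 ± 0.08 without the 2 libraries (adjusted p = 0.806). In males it was 0.39 ± 0.19 (adjusted p = 0.373), and 0.10 ± 0.11 without the 2 libraries. Macrophages also make Apoe, and 13 of 17 listed macrophage markers rose after injury and 0 fell (median log2 change 1.15). Over all genes 3.78% rose and 2.73% fell. Their summed level was 357 to 449 CPM in Female SNI, against 152 to 211 CPM in Female sham. In males that sum was 299.7 to 488 CPM after SNI, against 136 to 177 CPM after sham. The highest of these sums, 488 CPM, was in Male SNI replicate 2, the library with the most Apoe. In the other 5 SNI libraries, whose sums were also above all sham sums, Apoe was at 4240.1 to 4906 CPM. That lies within the 3589 to 5362 CPM of the 6 sham libraries. None of the 17 markers was at 0 in all libraries. The part of macrophage RNA in the level of Apoe was not tested.

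Gfap (chromosome 11, 102887336 to 102897200) rested on few counts, from 13 to 88 in the SNI libraries and from 0 to 38 in the sham libraries. It was at 2.41, 1.56 and 4.19 CPM in Female SNI libraries, against 2.85, 1.36 and 1.68 CPM in Female sham libraries. After SNI, male libraries were at 1.06, 6.76 and 2.26 CPM, against 0.742, 0 and 0.891 CPM in Male sham libraries. In CPM the male groups did not overlap, which 9.09% of tested genes did in that direction, and the female groups overlapped. The raw male counts did overlap, with 13 in Male SNI replicate 1 and 14 in Male sham replicate 3. The change was 1.52 ± 0.59 averaged over the sexes (95% interval 0.25 to 2.80, unadjusted p = 0.0223, adjusted p = 0.173) and 2.58 ± 0.88 in males (unadjusted p = 0.0109, adjusted p = 0.178). In females it was 0.47 ± 0.80 (adjusted p = 0.846), and the difference between the sexes did not pass (2.12 ± 1.18, adjusted p = 0.653). Male SNI replicate 2 held the highest value, and without it and Female sham replicate 2 the average over the sexes was 0.93 ± 0.58 (adjusted p = 0.365) and the male change was 1.59 ± 0.84 (adjusted p = 0.387). Without the same libraries the female change of Gfap was 0.27 ± 0.79 and the difference between the sexes 1.32 ± 1.15. DESeq2 gave 2.63 in males with adjusted p = 0.0357, while the adjusted p of the male change lay between 0.103 and 0.466 in edgeR with 1 library left out.

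Ednrb (chromosome 14, 103814615 to 103844508) was at 56.9, 74.2 and 60.5 CPM in Female SNI libraries, against 61.7, 43.9 and 66.5 CPM in Female sham libraries. In males after SNI the level was 68.2, 90.6 and 60.9 CPM, against 72.7, 61.4 and 68.4 CPM in Male sham libraries. The groups overlapped in both sexes, and the highest and lowest values were again those of Male SNI replicate 2 and Female sham replicate 2. The change was 0.14 ± 0.13 averaged over the sexes (95% interval -0.15 to 0.42, adjusted p = 0.667) and -0.03 ± 0.10 without these 2 libraries (adjusted p = 0.907).

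Cdh19 (chromosome 1, 110888002 to 110977601) had 12 to 67 counts per library. It was at 2.99, 1.56 and 4.77 CPM in Female SNI libraries, against 1.35, 2.19 and 2.36 CPM in Female sham libraries. Among males after SNI it was 1.79, 2.15 and 4.59 CPM, against 0.891, 2.45 and 1.21 CPM in Male sham libraries. The groups overlapped in both sexes, although the highest value in each sex was that of SNI replicate 3. The change was 0.78 ± 0.40 (95% interval -0.07 to 1.63, adjusted p = 0.325), and 0.91 ± 0.44 without the 2 libraries (adjusted p = 0.212).

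**Figure D3:**
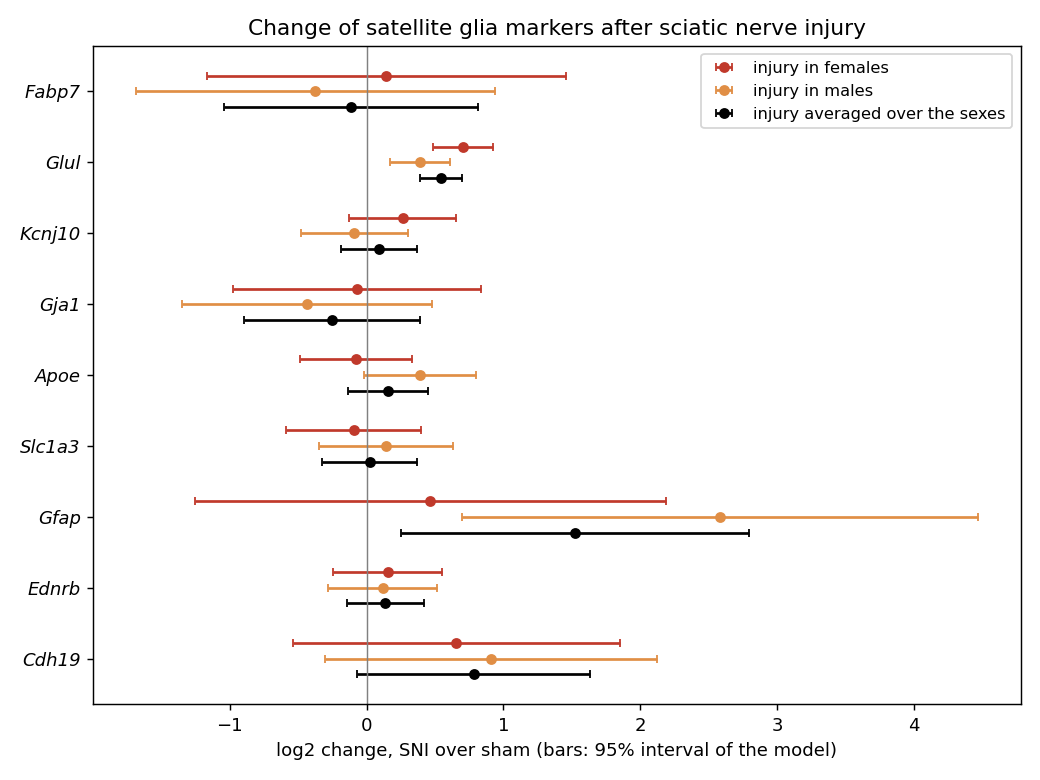
Log2 change after SNI over sham (horizontal axis) of each of the 9 markers, in females, in males and averaged over the sexes; points are estimates and bars are 95% intervals of the model. The averaged interval of Glul, 0.39 to 0.70, and that of Gfap, 0.25 to 2.80, lie above 0, but Gfap did not pass adjustment over all genes, and the intervals of Fabp7 and Gja1 are wide on both sides of 0.

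In the comparison of males with females, averaged over the operations, none of the 9 members passed, with adjusted p = 1 for each, against 0.0466% of all genes (7 of 15036). The differences, males minus females, ran from -0.75 ± 0.59 for Gfap to 0.22 ± 0.13 for Ednrb on the log2 scale. Without the 2 libraries that stood apart they ran from -1.35 ± 0.59 for Gfap to 0.11 ± 0.07 for Glul, with Ednrb at 0.048 ± 0.096, and adjusted p lay between 0.692 and 0.979. Glul was at 353 to 376 CPM in Male sham libraries and at 285 to 324 CPM in Female sham libraries, and at 463 to 492 CPM in Male SNI and 473 to 517 CPM in Female SNI. The averaged difference of Glul was 0.10 ± 0.07. For the change after injury itself, the differences between the sexes were given above for Glul and Gfap, and none of the 9 passed, with adjusted p from 0.647 to 0.968.

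The members did not move as a block between libraries. In Male SNI replicate 2 and Female sham replicate 2, Fabp7 was at 8.06 and 18.9 CPM, against 55.3 to 107 CPM in the other 10 libraries. In the same libraries Gja1 was at 3.84 and 4.61 CPM, against 6.74 to 15.1 CPM in the other 10. Relative to the median of the other 10, Fabp7 was at 12.2% and 28.6% and Gja1 at 35.5% and 42.6%. Apoe went the other way and was above all of the other 10 in both, at 7602 and 5362 CPM, against 3589 to 5278 CPM. Among all tested genes 14.6% were below, and 11% above, the other 10 in both libraries, so that 2 and 1 of 9 members are close to those shares. Kcnj10 was at 88.1% and 70.2% of the median, Slc1a3 at 83.9% and 89.4%, and Cdh19 at 104% and 106%. Ednrb split, at 141% in Male SNI replicate 2 and 68.5% in Female sham replicate 2. Gfap was at 416% in Male SNI replicate 2 and 83.8% in Female sham replicate 2. Glul was at 463 CPM in Male SNI replicate 2, against 464 and 492 CPM in the other Male SNI libraries, and at 296 CPM in Female sham replicate 2, between the 285 and 324 CPM of the other Female sham libraries.

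**Figure D4:**
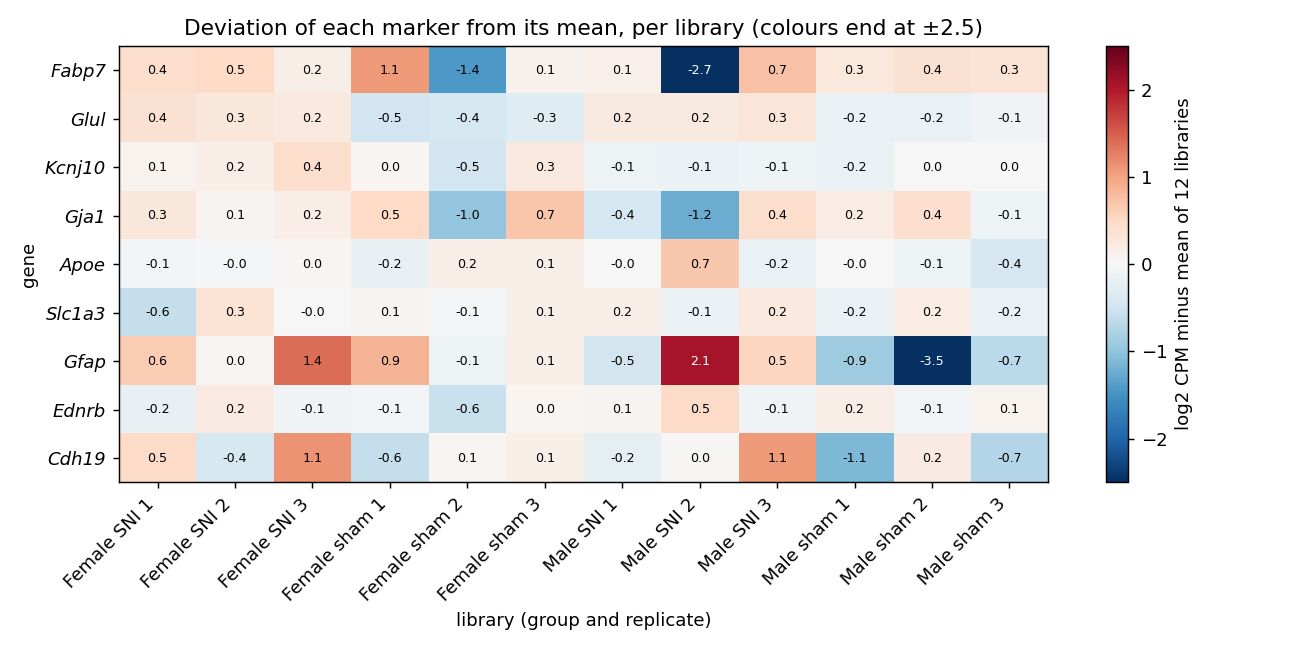
Deviation of log2 CPM of each marker (rows) from its mean over the 12 libraries, in every library (columns, by group and replicate); red is above and blue below the mean, and colours end at ±2.5. Glul is above its mean in all 6 SNI libraries and below it in all 6 sham libraries. The low values of Fabp7 and Gja1 coincide in Female sham replicate 2 and Male SNI replicate 2, where 14.6% of all genes tested were lowest.

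Likeness between profiles was measured as the distance between log2 CPM values standardised to mean 0 and SD 1 over the 12 libraries, where identical profiles have a distance of 0 and the median gene lay 4.58 to 4.85 from a member. Among the 36 pairs of members the closest were Fabp7 and Gja1 at 1.67, followed by Kcnj10 and Gja1 at 2.88. Distances over the 10 libraries without Male SNI replicate 2 and Female sham replicate 2 are on a shorter scale, with the median gene at 4.21 to 4.29, and are not compared in size with those over 12. Over these 10, Fabp7 and Gja1 were 3.41 apart and the closest pair was Glul and Cdh19 at 2.89. Of genes with a mean of at least 5 CPM, those nearest to Glul were Klf6 (0.78), a transcription factor, and Akr1b8 (0.83), and over the 10 libraries Fam171b (0.58) and Klf6 (0.66). Nearest to Fabp7 were Ece1 (0.46), which encodes an endothelin-converting enzyme, and Lta4h (0.50), and over the 10 libraries Manf (1.27) and Sec24a (1.33). Nearest to Gfap were Slc1a2 (1.39), which encodes the glutamate transporter GLT-1, and Cdh13 (1.49), and both were also its nearest over the 10 libraries. Gja1 had Mrpl27 (1.06) and then Hsf1 as nearest genes, and Apoe had Tug1 (0.80) and Sept5 (0.82). The nearest genes were more distant for Slc1a3, with Ppp1r14c (1.58) and Phf6 (1.95). The same held for Ednrb, with Ube3c (1.80) and Ap3b1 (1.87), and for Cdh19, with Traf3ip1 (1.95) and Ifnar2 (1.97). Of 18 pairs of a member and a near gene over all members, 4 were found again over the 10 libraries.

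Genes that work with the members were read from fixed lists for injury averaged over the sexes. In that comparison 3.78% of all genes passed as higher after SNI and 2.73% as lower. Counts near those shares are not read as results about a list. Of 13 tested genes of glutamate and glutamine handling other than members, 1 rose and 0 fell (median log2 change 0.08). The one that rose was Slc1a4, a neutral amino acid transporter, at 129 ± 31.3 CPM in SNI and 64.5 ± 11.3 CPM in sham libraries (SD, n = 6), a log2 change of 1.003 ± 0.145 (adjusted p = 0.000705). Got2, the most abundant of that list, was at 0.14 ± 0.11. Of 11 gap junction and pannexin genes other than Gja1, none rose and 1 fell, Panx2 at -0.49 ± 0.13, and Panx1, the most abundant, was at 0.18 ± 0.15. The call of Panx2 held in 4 of 12 fits with 1 library left out, those without replicate 2 of Female SNI, of Male SNI or of Male sham, or replicate 1 of Female sham, with changes of -0.56 to -0.41. Of 11 inward rectifier potassium channel genes other than Kcnj10 none passed, with a median of -0.38. Kcnj12, the most abundant, was at -0.37 ± 0.12 (adjusted p = 0.0854) in edgeR. Of the 12 fits with 1 library left out, it passed in those without replicate 1 of Female sham or replicate 2 of Male SNI, with changes of -0.44 to -0.33 over the 12. It also passed in limma with sample quality weights (-0.44, adjusted p = 0.00737) and without the 2 libraries that stood apart (-0.39, adjusted p = 0.035).

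Of 17 lipoprotein and fatty acid carrier genes other than members, 3 rose and 0 fell (median 0.21), against 3.78% and 2.73% of all genes. Abca1, a transporter that loads lipid onto apolipoprotein E, was at 122 ± 25.5 CPM in SNI and 53.7 ± 9.03 CPM in sham libraries, a change of 1.19 ± 0.15 (adjusted p = 0.000216). Apod, another apolipoprotein gene and the most abundant of the list, rose by 0.54 ± 0.10, and it is also a listed fibroblast marker. Fabp5, a relative of Fabp7, rose by 0.34 ± 0.09, a call that held in 4 of 12 fits with 1 library left out (without replicate 1 of Female sham, replicate 2 or 3 of Male SNI, or replicate 2 of Male sham, with changes of 0.29 to 0.39). Of 7 genes of the endothelin system other than Ednrb none passed, with a median of -0.23, and Ece1, the most abundant, was at -0.04 ± 0.29.

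Among 8 intermediate filament and lamin genes other than Gfap, 1 rose, Lmna at 0.44 ± 0.12, and none fell (median 0.24). Over all genes 3.78% rose and 2.73% fell. Lmna passed without replicate 2 of Female sham or replicate 2 or 3 of Male SNI and in no other of the 12 fits, with changes of 0.33 to 0.52. Nefl, the most abundant, whose exons share 1108 bases with Nefm, was at -0.35 ± 0.12 (adjusted p = 0.103). Of the 12 fits with 1 library left out, Nefl passed in the one without Male SNI replicate 2, with changes of -0.44 to -0.27 over the 12. It also passed in limma with sample quality weights (-0.40, adjusted p = 0.000603) and without the 2 libraries that stood apart (-0.37, adjusted p = 0.00073). Of 16 glial lineage and Notch pathway genes 1 rose and 1 fell (median -0.07). Sox9, a glial transcription factor, rose by 0.74 ± 0.12, to 37.1 ± 4.25 CPM in SNI libraries, against 22.1 ± 2.81 CPM in sham libraries. Hes5, a Notch target, fell (log2 change -0.75 ± 0.17), to 7.21 ± 2.32 CPM in SNI libraries, against 11.9 ± 2.08 CPM in sham libraries, and its change was -0.67 with adjusted p = 0.0502 without Female SNI replicate 1. S100b, the most abundant of that list, was at -0.18 ± 0.14.

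Of 20 further genes named for satellite glia or related glia 2 rose and 1 fell, with a median of -0.06 over the list and 0.00 over all genes tested. Among all genes, 3.78% rose and 2.73% fell. Gfra1, a receptor of the GDNF family that neurons also express, rose by 1.08 ± 0.19. In Male SNI replicate 2 it was at 186 CPM, against 201 ± 26.2 CPM in the sham libraries (SD). Gfra1 exons share 416 bases with Gm16277 on the opposite strand. Lgi4, a secreted glial protein, rose by 0.44 ± 0.10, a value made uncertain by 2059 exonic bases shared with Fxyd3, and it did not pass without replicate 1 or 2 of Female SNI, replicate 1 of Female sham or replicate 1 or 3 of Male sham, with changes of 0.36 to 0.50. Ntsr2, a neurotensin receptor, fell with all 12 libraries (log2 change -1.45 ± 0.39, adjusted p = 0.042). With 1 library left out, its call held in 3 of 12 fits, those without replicate 1 of Female sham, replicate 2 of Male SNI or replicate 1 of Male sham, with changes of -1.74 to -1.20 over the 12. Sparc, the most abundant, was at 0.07 ± 0.12. Of 16 tested genes of glial and tissue reactivity, 6 rose and 0 fell (median 0.70). They were led by Hspb1 at 1.01 ± 0.13, Timp1 at 1.48 ± 0.22 and C4b at 0.82 ± 0.16, and the same list holds genes of macrophages and injured neurons.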

How the data were processed

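Messenger RNA of dorsal root ganglia was measured in 12 libraries, 3 per group, by QuantSeq 3′ sequencing. The authors deposited 1 table per library of raw counts per gene symbol. Per the submitters' processing notes, Bowtie2, bedtools and mm10 were used; versions, filters and the use of strand are not stated there. Each table held 23282 rows, and the 44 extra rows of the 35 repeated symbols were summed.

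The counts were fitted in R 4.3.3 with the edgeR 4.0.16 quasi-likelihood test: TMM scaling, filterByExpr with a minimum count of 10, and 1 model of all 12 libraries with 5 comparisons (injury in each sex, their average, the sex difference of the injury change, and sex). P-values were adjusted by Benjamini-Hochberg over 15036 genes, and genes passed below 0.05. Errors of log2 changes are SE, and intervals are 95%. Log2 CPM used a prior count of 2. DESeq2 1.42.0 and limma 3.58.1 served as alternatives. The fit was also run on simulated data, and no result of that run is given here.

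The members and the other 20 gene lists were chosen with earlier results of these data known. In the pathway and reactivity lists, the genes named were those past the threshold, at most the 3 with the lowest p in each direction, and the most abundant gene of a pathway list; lists of other cell types are given mainly as counts. Only 3 of 18 same-numbered pairs of libraries correlated above 0.1, and the fit as reported used no block. Sequences and positions come from RefSeq GRCm38.p6, and exon overlaps from GENCODE M21. The genes nearest in profile to Kcnj10 are not reported here.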

Additional observations from a re-analysis of the deposited data

How the results depend on the processing

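Glul passed averaged over the sexes and in females under every alternative tried. In males the number of markers that passed, 0 as reported, was 2 in DESeq2 (Glul and Gfap), 1 in limma voom with sample quality weights and 1 without the 2 libraries that stood apart (Glul in both), and 0 to 1 with 1 library left out. Over all genes, 980 passed averaged over the sexes, against 1349 in DESeq2, 2008 in limma and 1848 without the 2 libraries. In females 435 passed, against 738 in DESeq2, 1562 in limma, 986 without the 2 libraries and 905 in a fit of the 6 female libraries. In males 321 passed, against 647, 693, 698 and 71 under the same settings. For sex 7 passed, against 11 in DESeq2 and 11 without the 2 libraries. With 1 library left out these counts ran from 626 to 1766 averaged over the sexes, 155 to 1176 in females and 137 to 601 in males. The cause of these shifts was not tested.

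Of the markers' log2 changes, none that passed changed sign. In limma, Fabp7 (0.046) and Ece1 (0.037) averaged over the sexes and Ednrb in males (-0.0010) changed sign. Without the 2 libraries, so did Ednrb (-0.029), Ece1 (0.026) and Sparc (-0.023) averaged over the sexes, Fabp7 (-0.27) and Ednrb (-0.0011) in females, Fabp7 (0.14) and Ednrb (-0.057) in males, and the sex differences of Fabp7 (0.41) and Gja1 (0.33). With 1 library left out, values that changed sign ran as follows. Averaged over the sexes, Fabp7 ran from -0.43 to 0.24, Kcnj10 from -0.0040 to 0.17, Slc1a3 from -0.093 to 0.13, Ece1 from -0.27 to 0.17 and Sparc from -0.0023 to 0.14. In females, Fabp7 ran from -0.28 to 0.85, Gja1 from -0.43 to 0.23, Slc1a3 from -0.33 to 0.12 and Ednrb from -0.0056 to 0.27. In males, Fabp7 ran from -1.01 to 0.13 and Ednrb from -0.063 to 0.23. The sex differences ran from -0.22 to 0.12 for Ednrb and from -0.27 to 0.77 for Cdh19.

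With the replicate number as a block, 936, 437, 295 and 6 genes passed averaged over the sexes, in females, in males and for sex, Glul kept its calls (0.55 averaged over the sexes, adjusted p = 0.000793), Gja1 in females was at 0.040, a change of sign, and Ntsr2 averaged over the sexes no longer passed (-1.41, adjusted p = 0.0509). Of 18 same-numbered pairs, 3 correlated above 0.1 (r from -0.09 to 0.43), and 6 of 12 libraries correlated best with their own number. The highest r, 0.43, joined Male SNI replicate 2 and Female sham replicate 2, the libraries that stood apart. These values do not settle whether same-numbered libraries belong together. Depth limits Gfap and Cdh19 most, which had 0 to 88 and 12 to 67 counts per library.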

Other observations

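Other cell types of a ganglion were read from marker lists for injury averaged over the sexes, in which 6.52% of all genes passed. Of 14 neuronal markers 2 rose and 5 fell, with a median log2 change of -0.26. Of 14 markers of myelinating Schwann cells 0 rose and 0 fell (median 0.13), and of 10 tested markers of repair Schwann cells 3 rose and 0 fell (median 0.34). Those that rose were Jun at 1.03 ± 0.08, Tgfbi at 0.40 ± 0.11 and Ncam1 at 0.28 ± 0.07. Ngfr, the most abundant of the repair list, was at -0.11 ± 0.10 and did not pass. Which cells of the ganglion these changes came from was not tested. Of 9 tested astrocyte markers 0 rose and 1 fell (median -0.21). Of 10 fibroblast markers 1 rose, Apod, which is also counted in the lipoprotein list above. None of 10 endothelial, 10 mural and 9 cell cycle genes tested passed.

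Skeletal muscle markers summed to 38.3 to 1497 CPM in Male SNI and 9.50 to 76.3 CPM in Male sham, and to 11.7 to 55.8 CPM in Female SNI and 7.48 to 13.9 CPM in Female sham. The sum of 1497 CPM came from a single library, as Male SNI replicate 2 was at 40.6 CPM and another Male SNI library at 38.3 CPM. None of these 8 genes passed in edgeR.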
